A study of Mus musculus with 12 samples.

Results

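Translation initiation factors are the proteins that bring a ribosome, an initiator tRNA and a messenger RNA together at a start codon. Their genes were taken here as the protein-coding rows of the deposited gene table whose names begin with Eif and a digit from 1 to 6. This rule gave 55 of 54532 rows, and 53 of the 55 held enough counts to be tested among 15003 genes. RNA had been sequenced in bulk from haematopoietic stem and progenitor cells (HSPCs) of mouse bone marrow, sorted fresh as lineage-negative, cKit-positive cells and not cultured. The WT groups were Dnmt3a+/+ and the RH groups were Dnmt3a fl-R878H/+, heterozygous for a change in a de novo DNA methyltransferase. All 4 groups shared the C57BL/6 background and carried Mx1-cre, a transgene that an interferon response turns on in blood cells and in other tissues. The animals received vehicle (VEH) or metformin (MET), a biguanide, for 1 month in an in vivo competition experiment, and 3 libraries were deposited for each group (WT VEH, RH VEH, WT MET, RH MET). Age and sex are not given in the sources used here. Each treatment group had 2 animals and no label says which animal a library came from, so p-values measure only the spread between these libraries, which may be technical. The question put was by what mechanism metformin affects these cells with and without the mutation.

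In outline, eIF1, eIF1A, eIF3 and eIF5 gather on the small ribosomal subunit with eIF2, which carries the initiator tRNA in its GTP form. The cap-binding complex eIF4F, made of eIF4E, the scaffold eIF4G and the helicase eIF4A, loads the messenger RNA, and eIF5B joins the large subunit. Cells restrain this process at eIF2 and at eIF4E, and low protein synthesis is a known trait of blood stem cells. Stress kinases phosphorylate eIF2, which blocks its recycling by the exchange factor eIF2B, and unphosphorylated 4E-binding proteins, which mTORC1 otherwise phosphorylates, hold eIF4E away from eIF4G.

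Total counts ran from 13359583 to 21938003 per library, of which the 55 genes held 121227 to 323721. In the TMM-normalised CPM (counts scaled to a common library total) used below, 1 CPM stood for 8.37 to 24.8 reads. The progenitor markers Kit (118 to 199.9 CPM), Gata2 (141 to 331 CPM) and Myb (204 to 338 CPM) were present in every library, and Ly6a, which encodes Sca-1, was low (2.71 to 8.94 CPM). Genes on the marker lists of lineage-positive cells were not absent. Of the 6 T and NK cell genes, Cd3e (0.378 to 3.08 CPM), Cd3d (0.446 to 7.05), Cd4 (0.634 to 2.78), Cd8a (0.595 to 6.29) and Klrb1c (1.67 to 7.36 CPM) were low. Only Nkg7 was higher, at 34.5 to 70.8 CPM. The 3 B cell genes summed to 5.99 to 21.9 CPM, and the granulocyte gene S100a9 stood at 174 to 1257 CPM. Which cells these counts came from was not tested. No gene of the marker lists was at 0 in all libraries. Libraries WT MET 2 and RH VEH 2 stood apart, since the mitochondrial genome took 33.3% and 40.8% of their counts but only 1.57% to 4.33% elsewhere. In these 2 libraries the summed level of 5 granulocyte markers was 475 and 452 CPM, against 846 to 2958 CPM in the others, and that of 3 megakaryocyte markers was 1496 and 1171 CPM, against 362 to 756 CPM. The term round 1 stands for the 6 libraries that both deposited tables hold, namely RH MET 1 and 2, RH VEH 1, WT MET 1 and WT VEH 1 and 2, and round 2 for the other 6. The libraries were matched between the tables by identical counts for every gene, and RH VEH 1 carries the number 2 in the smaller table.

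The start regions of 6 of the genes are shown because these genes were among those of smallest p in the comparisons below and had an entry, which Eif3j2 did not. Each line runs 5′ to 3′ from 100 bases before to 20 after the RefSeq transcription start (build GRCm38.p6), and the capitals mark matches, on either strand, to an SP-factor GC box (GGGCGG), an ETS site (CCGGAAG) or an E-box (CACGTG).
Eif4a2, chr16:23107368-23107487, plus strand: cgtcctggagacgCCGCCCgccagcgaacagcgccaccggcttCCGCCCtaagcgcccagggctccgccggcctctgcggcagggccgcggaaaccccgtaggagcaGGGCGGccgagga
Eif1, chr11:100319849-100319968, plus strand: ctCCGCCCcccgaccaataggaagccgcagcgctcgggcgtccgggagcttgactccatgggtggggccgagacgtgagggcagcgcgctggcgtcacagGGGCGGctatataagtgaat
Eif3k, chr7:28981869-28981988, minus strand: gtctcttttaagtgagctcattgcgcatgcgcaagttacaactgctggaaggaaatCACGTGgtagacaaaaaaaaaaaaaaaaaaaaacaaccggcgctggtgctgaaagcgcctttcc
Eif3a, chr19:60790674-60790793, minus strand: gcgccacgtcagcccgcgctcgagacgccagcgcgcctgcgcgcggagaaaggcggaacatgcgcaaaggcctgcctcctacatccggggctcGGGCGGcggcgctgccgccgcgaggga
Eif3c, chr7:126566347-126566466, minus strand: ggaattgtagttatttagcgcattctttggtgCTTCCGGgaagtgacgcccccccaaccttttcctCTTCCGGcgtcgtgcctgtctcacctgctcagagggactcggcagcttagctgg
Eif2s3x, chrX:94212632-94212751, minus strand: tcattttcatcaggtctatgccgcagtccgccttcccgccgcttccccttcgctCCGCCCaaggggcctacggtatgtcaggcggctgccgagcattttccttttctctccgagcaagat

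The 6 windows differ in the motifs they hold: Eif4a2 has 3 GC boxes, Eif1 2, and Eif3a and Eif2s3x 1 each, while Eif3c has 2 ETS matches and Eif3k an E-box. Over the full entries of 250 bases before to 50 after the start, 43 of the 55 genes could be matched. A CpG observed-to-expected ratio above 0.6 was found in 40 of the 43 (93%), against 69.7% of 10397 tested genes and 36.4% of all 27025 genes with an entry. The GC box was held by 32 of the 43 (74.4%, against 62.6% of tested genes), the ETS letters by 14 (32.6%, against 18.2%) and the E-box by 8 (18.6%, against 10.1%). The TATA letters TATAAA were held by 4 (9.3%, against 7.22%), and the ATF4 composite letters TGATGNAA by 1 (2.33%, against 2.33%). A match is a description of these letters and says nothing of binding.

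Levels spanned a wide range across the family. Levels per gene are compared as CPM per kilobase of the deposited gene length, as a mean of the 12 libraries. Eif5a, which encodes the hypusine-bearing factor that helps ribosomes through difficult peptide bonds, was highest at 596 CPM per kb, followed by the start-codon selection factor Eif1 at 273, the helicase Eif4a1 at 223, the scaffold subunit Eif3h at 198 and the helicase cofactor Eif4b at 172 CPM per kb. Eif4ebp3, a 4E-binding protein gene, was the lowest of the tested genes at 0.856 CPM per kb, and Eif3j2 and Eif5a2, minor copies of Eif3j1 and Eif5a, stood at 1.65 and 2.47 CPM per kb. Eif4e1b, which encodes an eIF4E of the germline, and Eif2s3y, the Y-linked copy of the eIF2 gamma gene, had 0 counts in all 12 libraries.

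**Figure D1:**
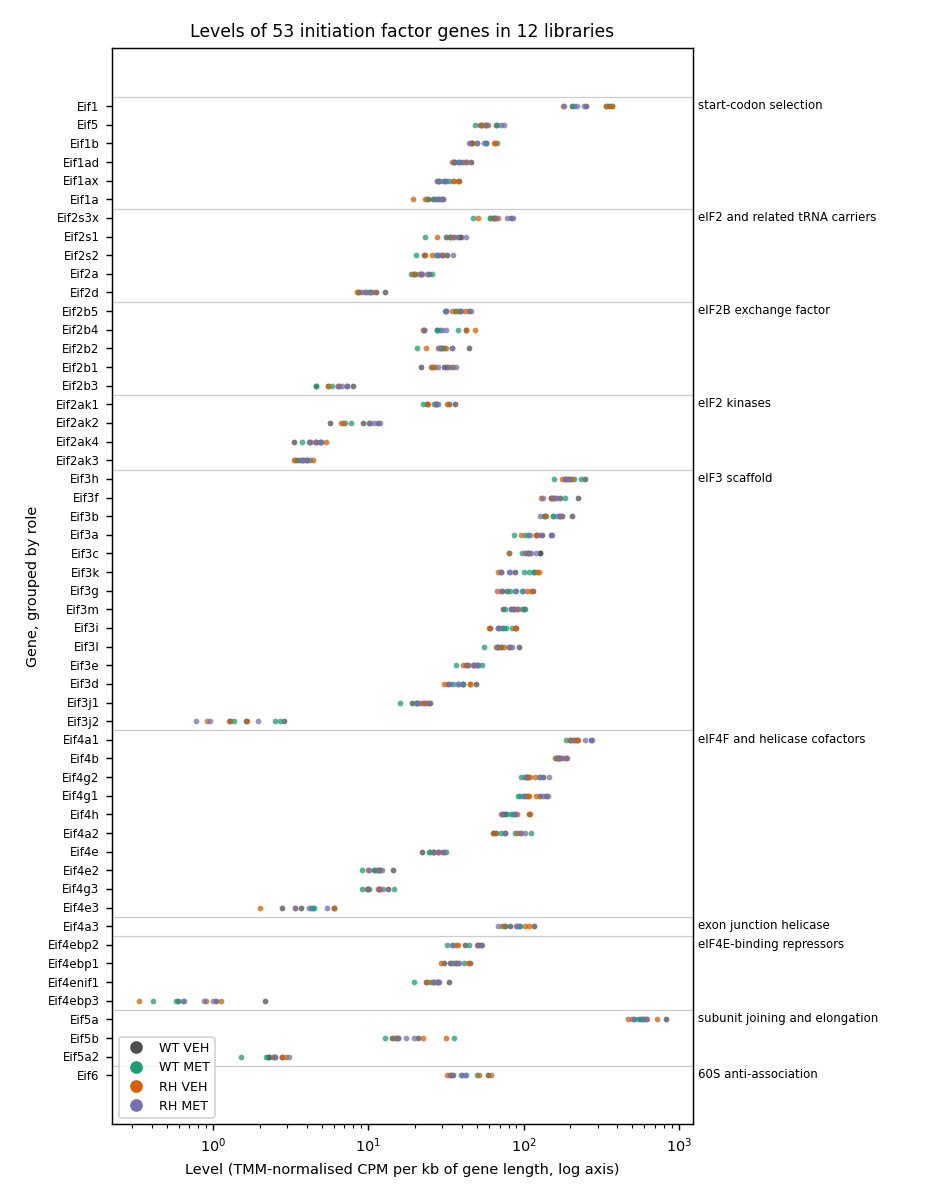
Level of each of the 53 tested genes (vertical axis, grouped by role) in TMM-normalised CPM per kb of gene length on a log axis, with a point for each of the 12 libraries coloured by group. The libraries of all 4 groups lie together for most genes, with Eif5a highest and Eif4ebp3 lowest by the mean of the libraries.

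Subunits of one complex were not at one level per kb, but this measure depends on the deposited gene length. Eif3h and Eif3e had close means of 319 and 312 CPM, at lengths of 1612 and 6719 bases. Orders per kb below can therefore differ from orders in CPM. The eIF3 scaffold has 14 measured genes, from Eif3h (198 CPM per kb), Eif3f (161) and Eif3b (159) down to Eif3e (46.5), Eif3d (39), Eif3j1 (21.5) and Eif3j2 (1.65 CPM per kb). In the eIF2 trimer, Eif2s3x (gamma) stood at 66.2, Eif2s1 (alpha) at 34.3 and Eif2s2 (beta) at 27.6 CPM per kb. In the eIF2B exchange factor, Eif2b5, the catalytic epsilon subunit, stood at 37.6 and Eif2b3 (gamma) at 6.20, with the other 3 subunits at 29.6 to 32.1 CPM per kb. Among the eIF2 kinases, Eif2ak1 (HRI, the haem-regulated kinase) led at 27.9 CPM per kb, ahead of Eif2ak2 (PKR, activated by double-stranded RNA) at 8.996, Eif2ak4 (GCN2, activated by uncharged tRNA) at 4.45 and Eif2ak3 (PERK, the endoplasmic reticulum kinase) at 3.81. Per library, Eif2ak1 ran from 127 to 205 CPM, Eif2ak2 from 29 to 60.7 CPM, Eif2ak4 from 24.8 to 39.9 CPM and Eif2ak3 from 19.9 to 26.6 CPM, so Eif2ak1 stood apart, while Eif2ak2 overlapped Eif2ak4 and Eif2ak4 overlapped Eif2ak3. In the cap-binding complex, Eif4e stood at 27.3 CPM per kb, the repressor cap-binding protein Eif4e2 at 11.3 and Eif4e3 at 4.16. The 4E-binding protein genes Eif4ebp2 and Eif4ebp1 stood at 43.5 and 36.9 CPM per kb, both above Eif4e by this measure. Without the division by length, Eif4ebp2 (251.5 CPM) was above Eif4e (164 CPM) and Eif4ebp1 (81 CPM) below it. The helicase paralogs Eif4a1, Eif4a3 (the exon junction helicase) and Eif4a2 stood at 223, 89.1 and 83.3 CPM per kb. Eif4a1 carries a limit: its processed pseudogene Eif4a-ps4 held 41293 counts in all, equal to 12.1% to 25.1% of Eif4a1's count in each library, and the sources used here do not say how reads shared between the 2 were assigned. Eif1 and Eif1b, Eif1a and Eif1ax, and Eif3j1 and Eif3j2 are close copies for which the same limit holds. It holds too for Eif4ebp3 and Eif4e3, of length 744 and 2515 bases. Their exons share 501 and 373 bases with a protein-coding gene on the same strand.

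As a share of the counts outside the mitochondrial genome, the 55 genes together took 1.62% ± 0.0873 (SD, n = 3) for WT VEH, 1.52% ± 0.0723 for WT MET, 1.57% ± 0.0654 for RH VEH and 1.65% ± 0.134 for RH MET. The ranges overlapped: they were 1.52% to 1.69% for WT VEH, 1.46% to 1.60% for WT MET, 1.52% to 1.64% for RH VEH and 1.51% to 1.77% for RH MET. The genes also varied less around their group and round means than most genes did, without matching for level. Of the 53, 44 had a residual SD below that of the median gene tested. Eif4b, the helicase cofactor, had the smallest of the 53, at 0.058 log2 units (percentile 0.2 of all genes tested), followed by Eif2b1 at 0.075 and Eif4ebp2 at 0.078. At the other end stood Eif4ebp3 (0.593), Eif5b (0.547), Eif4e3 (0.499) and Eif3j2 (0.496). Of these, Eif4ebp3 had only 3 to 29 reads in a library and Eif3j2 18 to 139, so counting error is large for both.

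No initiation factor gene passed an adjusted p of 0.05 in any of the 7 comparisons (edgeR quasi-likelihood test, Benjamini-Hochberg over 15003 genes), and none did with DESeq2. The background was as low. The percentage of all tested genes called was 0% for RH VEH against WT VEH, 0.00667% for RH MET against WT MET, 0% for RH MET against RH VEH, 0% for WT MET against WT VEH, 0% for the interaction, 0.00667% for the mean genotype effect and 0% for the mean metformin effect. A missed threshold does not show that the genes were alike, so the intervals are given. The median standard error of the 53 genes was 0.155 to 0.157 log2 units in the comparisons of single groups, against 0.251 to 0.252 over all genes tested. The genes compared were not matched for level, here or for the intervals that follow. The 95% interval of the difference lay inside a 2-fold change either way for 49 of 53 genes for RH VEH against WT VEH, 48 for RH MET against WT MET, 46 for RH MET against RH VEH and 50 for WT MET against WT VEH, against 60.1% to 62.7% of all genes in the same comparisons. For the interaction it did so for 41 of the 53.

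**Figure D2:**
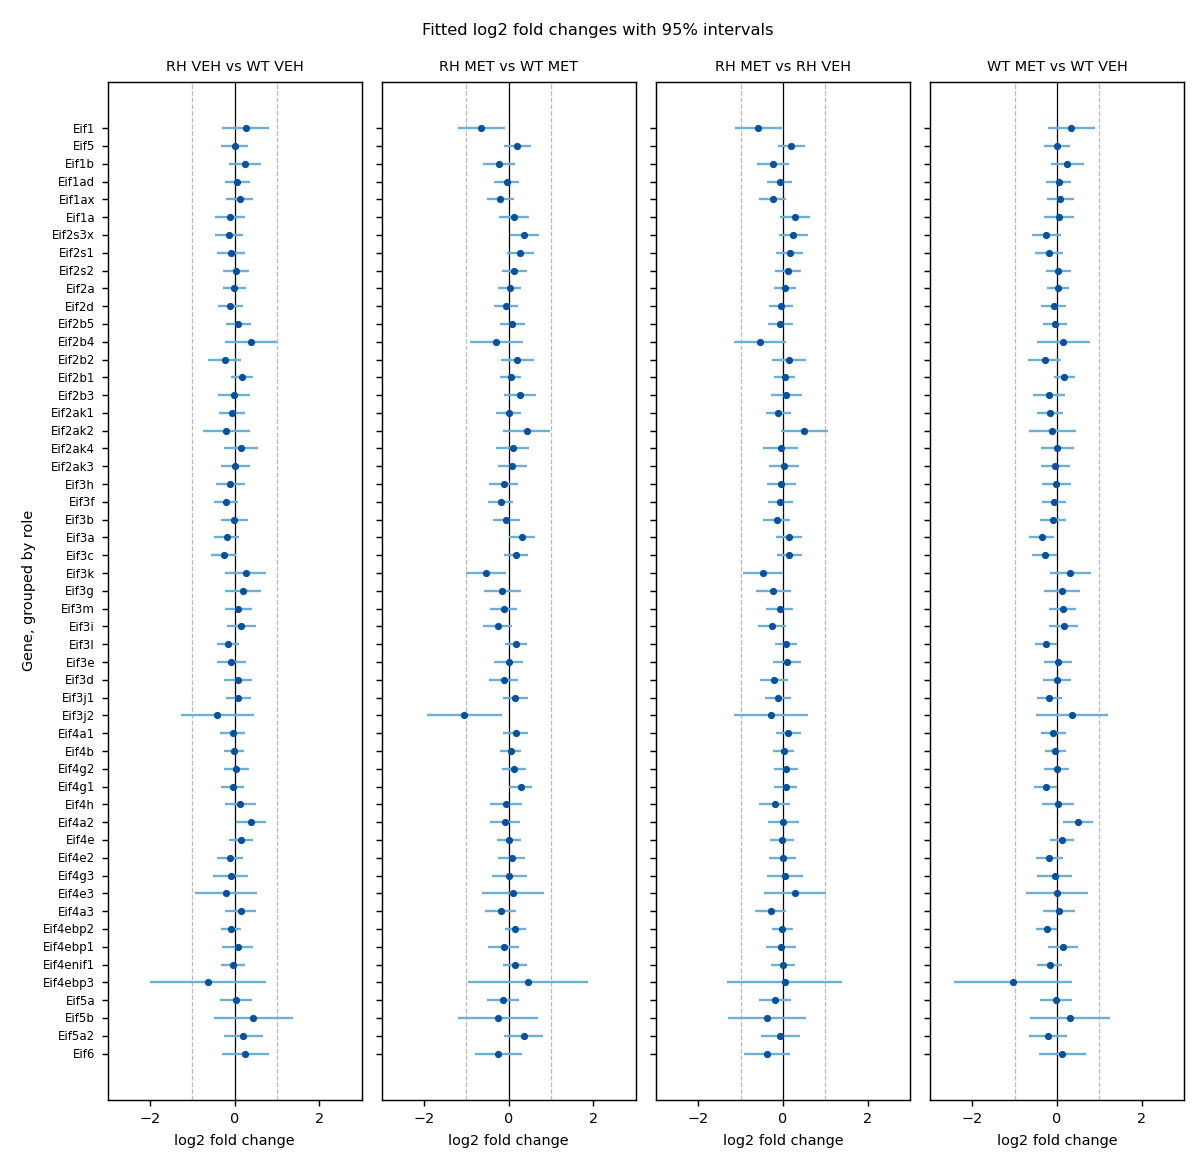
Fitted log2 fold change of each of the 53 tested genes (points) with its 95% interval (bars) in the 4 comparisons of single groups, dashed lines marking a 2-fold change. Most intervals cross 0 and lie inside the dashed lines, with those of Eif4ebp3, Eif3j2 and Eif5b among the widest.

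Mutant against wild-type cells under vehicle had a median log2 fold change of 0.001 over the 53 genes, with 27 above 0, beside 0.002 over all genes tested, of which 50.3% were above 0. Eif4a2, the eIF4A paralog of lower level (chromosome 16, 23107444 to 23114136, plus strand of mm10), had the smallest p. It stood at 352, 402 and 339.7 CPM in WT VEH 1 to 3, at 598, 468 and 381 CPM in WT MET 1 to 3, at 485, 512 and 342 CPM in RH VEH 1 to 3 and at 547, 503 and 403 CPM in RH MET 1 to 3. The WT VEH libraries were the lowest group by their mean, but RH VEH 3 and WT MET 3 reached into their range. The log2 fold change was 0.39 ± 0.165 (SE, n = 3 per group) for RH VEH against WT VEH (unadjusted p = 0.0354, adjusted p = 0.977 in edgeR), and 0.22 without WT MET 2 and RH VEH 2. Exons of 6 small RNA genes on the same strand and of a neighbour on the other strand overlap Eif4a2, and the strand setting of the counting is not given.

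Eif4a2 was the only gene of the 53 at an unadjusted p under 0.05 in that comparison, which is 1.89%, against 1.11% of all genes with a higher and 0.913% with a lower value. Eif3c and Eif3a, subunits of the eIF3 core, were the 2 genes whose RH VEH libraries all lay below all WT VEH libraries (3.77%, against 3.23% of all genes). Eif3c (chromosome 7, 126546455 to 126566411, minus strand) stood at 446, 449 and 379.9 CPM in WT VEH, at 372, 281 and 345 CPM in WT MET, at 359, 282 and 373 CPM in RH VEH and at 424, 390.3 and 362 CPM in RH MET. No gene lay higher in all RH VEH libraries, against 2.71% of all genes. These counts of groups that do not overlap have no term for round, and WT VEH 1 and 2 but only RH VEH 1 were of round 1. For Eif3c the log2 fold change of RH VEH against WT VEH was −0.26 ± 0.136 (adjusted p = 0.977 in edgeR), and −0.19 without the 2 libraries of high mitochondrial share. The next genes by p were Eif3f, an eIF3 subunit, at −0.21 ± 0.134, and Eif2b1, the eIF2B alpha subunit, at 0.18 ± 0.117. The summed level of the 3 megakaryocyte markers was 362 to 485 CPM in WT VEH and 495 to 1171 CPM in RH VEH, which did not overlap. The highest sum was that of RH VEH 2, of high mitochondrial share. Taken singly, Pf4 did not overlap between the groups, but Itga2b and Ppbp did. The part of these markers in the values above was not tested.

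Metformin against vehicle in wild-type cells had a median of −0.010 over the 53 genes, with 23 above 0, beside 0.013 over all genes, of which 51.9% were above 0. This comparison shares its WT VEH libraries with the one above, so the values of Eif4a2, Eif3a and Eif3c in both are not independent. Eif4a2 had the smallest p again, with a log2 fold change of 0.49 ± 0.164 (unadjusted p = 0.0113, adjusted p = 0.876 in edgeR), and 0.44 without WT MET 2 and RH VEH 2. Eif3a, the largest eIF3 subunit (chromosome 19, 60761116 to 60790693, minus strand), stood at 678, 779 and 629 CPM in WT VEH, at 556, 451 and 529 CPM in WT MET, at 618, 495 and 623 CPM in RH VEH and at 789, 664 and 571 CPM in RH MET. All WT MET libraries lay below all WT VEH and all RH MET libraries, and WT MET 2, of high mitochondrial share, was the lowest of the 12. The log2 fold change for WT MET against WT VEH was −0.37 ± 0.140 (adjusted p = 0.876 in edgeR), with −0.34 without the 2 libraries of high mitochondrial share.

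The groups also stood apart, with WT MET lower, for Eif3c, Eif3l, Eif2s3x and Eif4g1, so 5 of the 53 genes (9.43%) did so, against 4.40% of all genes, and none stood apart with WT MET higher, against 4.98%. These counts use CPM with no term for round. WT VEH 1 and 2 but only WT MET 1 were of round 1, and 47 of the 53 genes were lower in round 2. The part of round in these counts was not tested. Eif4g1, the main eIF4G scaffold, stood at 934, 1020 and 761 CPM in WT VEH and at 736, 687 and 673 CPM in WT MET, with a log2 fold change of −0.27 ± 0.126, and −0.32 without the 2 libraries of high mitochondrial share. Eif4ebp2, the 4E-binding protein gene of higher level, stood at 296, 308 and 242 CPM in WT VEH and at 256, 203 and 187 CPM in WT MET, where WT MET 1 overlapped WT VEH 3, with −0.25 ± 0.113, and −0.30 without those 2 libraries. At an unadjusted p under 0.05 were 1 higher gene (1.89%, against 2.1% of all genes) and 2 lower genes, Eif3a and Eif4ebp2 (3.77%, against 1.93%). The summed megakaryocyte markers did not overlap here either, at 362 to 485 CPM in WT VEH and 546 to 1496 CPM in WT MET. Their part in these values was not tested.

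**Figure D3:**
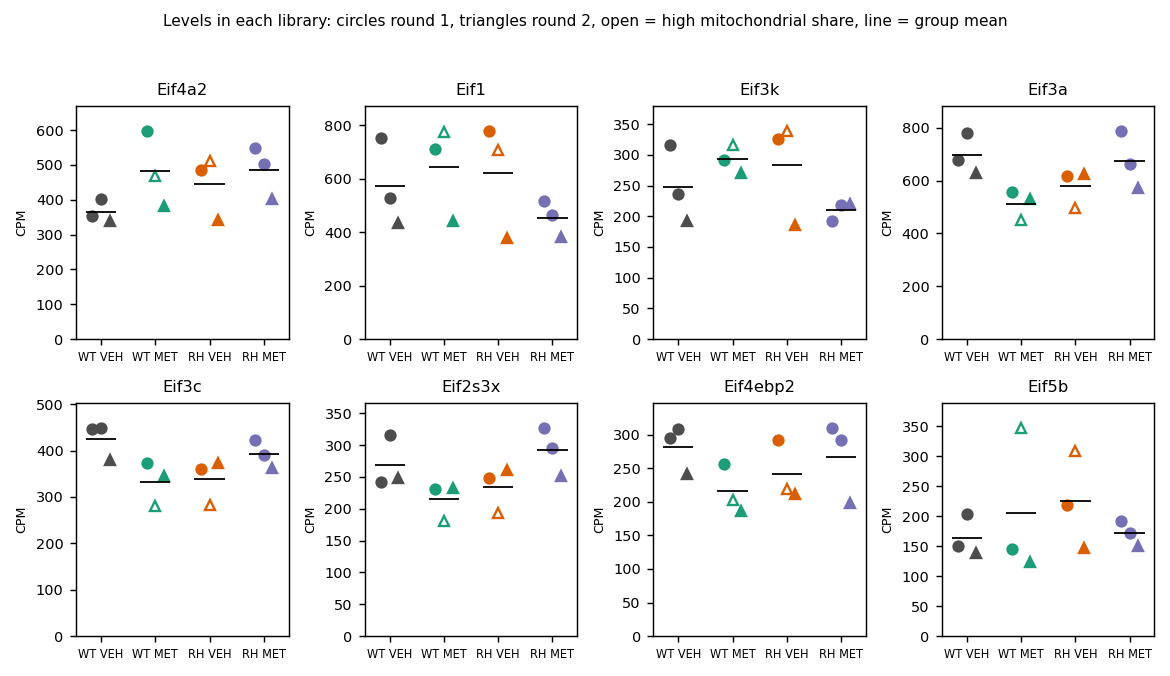
Levels in TMM-normalised CPM (vertical axes from 0) of 8 genes in each library by group, with circles for round 1, triangles for round 2, open symbols for WT MET 2 and RH VEH 2, and a line at each group mean. Eif3a and Eif3c are lower in all WT MET than in all WT VEH libraries, and Eif5b is highest in the 2 open symbols.

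Mutant against wild-type cells under metformin had the most initiation factor genes at an unadjusted p under 0.05 among the comparisons of single groups. There were 3 higher (Eif2s3x, Eif3a and Eif4g1) and 3 lower (Eif3j2, Eif1 and Eif3k), 5.66% each, against 2.19% and 3.59% of all genes. The median was 0.019 with 30 of 53 above 0, beside −0.017 over all genes, of which 48% were above 0. Eif1 (chromosome 11, 100319885 to 100322096, plus strand), whose product holds the scanning ribosome open until it meets a start codon, stood at 750.4, 528 and 433 CPM in WT VEH, at 711, 775 and 443 CPM in WT MET, at 779, 708 and 378 CPM in RH VEH and at 517, 462 and 381 CPM in RH MET. Within each group the round 2 library of ordinary mitochondrial share was the lowest, and WT MET 3 lay inside the range of RH MET. The log2 fold change was −0.65 ± 0.255 (unadjusted p = 0.0249, adjusted p = 0.738 in edgeR) and was −0.41 without WT MET 2 and RH VEH 2.

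Eif3k, a peripheral eIF3 subunit (chromosome 7, 28971372 to 28981864, minus strand), stood at 316, 236 and 192 CPM in WT VEH, at 291, 317 and 270.4 CPM in WT MET, at 327, 339.5 and 186 CPM in RH VEH and at 192, 218 and 219.6 CPM in RH MET. All RH MET libraries lay below all WT MET libraries, with a log2 fold change of −0.53 ± 0.219 and −0.45 without the 2 libraries of high mitochondrial share. Eif2s3x, the eIF2 gamma subunit on chromosome X (94188707 to 94212862, minus strand), had the opposite sign. It stood at 242, 316 and 248 CPM in WT VEH, at 232, 181 and 232 CPM in WT MET, at 248, 194 and 261 CPM in RH VEH and at 327, 296 and 251 CPM in RH MET. All RH MET libraries lay above all WT MET libraries, and the log2 fold change was 0.37 ± 0.158 (adjusted p = 0.738 in edgeR), and 0.31 without the same 2 libraries. Eif3j2 had the largest negative value, −1.05 ± 0.404, at 1.85 to 6.78 CPM in the 12 libraries.

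Counted without a test, the groups did not overlap for 7 of the 53 genes with RH MET higher (13.2%, against 7.97% of all genes). These were Eif2s3x, Eif2s1, Eif3a, Eif3j1, Eif2b3, Eif5a2 and Eif4ebp3. The groups did not overlap for 2 genes with RH MET lower, Eif3k and Eif3i (3.77%, against 8.94% of all genes). Neither count has a term for round, and RH MET 1 and 2 but only WT MET 1 were of round 1. The part of round in them was not tested. By role, a fold change above 0 was held by 4 of 4 eIF2 kinase genes and 4 of 5 eIF2B genes. It was also held by 4 of 5 genes of eIF2 and related tRNA carriers and 8 of 10 genes of eIF4F and its cofactors. Below 0 were 10 of 14 eIF3 genes and 4 of 6 genes grouped under start-codon selection. That group takes in Eif1ad, whose part in start-codon selection is not established here. Over all genes tested, 48% were above 0. None of the initiation factor genes passed the test. Marker genes of other cell types differed in the same libraries, and their part in these values was not tested. The summed level of the 5 granulocyte markers was 475 to 2151 CPM in WT MET and 1935 to 2958 CPM in RH MET, with all 5 fold changes above 0. That of the 3 megakaryocyte markers was 546 to 1496 CPM in WT MET and 511 to 512 CPM in RH MET, which did not overlap, with all 3 fold changes below 0. That of the 6 T and NK markers was 61.1 to 85 CPM in WT MET and 39.1 to 78.2 CPM in RH MET, with 5 fold changes below 0. In bulk RNA, fewer cells of a type and less RNA per cell cannot be told apart.

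Metformin against vehicle in mutant cells had a median of −0.031 over the 53 genes, with 24 above 0, beside −0.005 over all genes, of which 49.3% were above 0. Eif1 and Eif3k, described above, were the 2 lower genes at an unadjusted p under 0.05 (3.77%, against 1.52% of all genes), and no gene was higher at that level (against 0.906%). Eif1 had a log2 fold change of −0.58 ± 0.252 and Eif3k of −0.48 ± 0.218 (adjusted p = 0.932 for both in edgeR). In RH VEH both genes were high in libraries 1 and 2 and low in library 3, and RH VEH 3 lay below every RH MET library for both. Without WT MET 2 and RH VEH 2 the values were −0.39 for Eif1 and −0.30 for Eif3k. No gene had groups that did not overlap, in either direction, against 4.11% of all genes with RH MET higher and 2.81% lower. The summed granulocyte markers did not overlap, at 452 to 1584 CPM in RH VEH and 1935 to 2958 CPM in RH MET, with all 5 fold changes above 0 (1.43 ± 0.664 log2 units for S100a9). The 6 T and NK markers all had fold changes below 0, with a median of −1.0, while their summed levels overlapped. None of these markers passed the threshold, and their part in these values was not tested.

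The next genes by p belonged to the eIF2 branch. Eif2ak2, the PKR gene and a known interferon target, stood at 29, 59.3 and 47.2 CPM in WT VEH, at 39.7, 36.3 and 52.2 CPM in WT MET, at 34.8, 34.2 and 51.8 CPM in RH VEH and at 60.7, 55.1 and 51.7 CPM in RH MET. RH MET was the highest group by its mean, but RH VEH 3 lay within its range, and the log2 fold change was 0.51 ± 0.260 with a 95% interval of −0.056 to 1.07, and 0.41 without WT MET 2 and RH VEH 2. Eif2b4, the eIF2B delta subunit, stood at 111, 126 and 58.3 CPM in RH VEH and at 81.7, 76.9 and 59 CPM in RH MET, with −0.54 ± 0.281, and with −0.27 without the 2 libraries of high mitochondrial share.

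The interaction is the metformin effect in mutant cells minus that in wild-type cells. It was above 0 for 29 of the 53 genes, against 48.3% of all genes. The median was 0.032 beside −0.020 over all genes. An unadjusted p under 0.05 was reached by 3 genes with a positive value, Eif3a, Eif3c and Eif2s3x (5.66%, against 2.45% of all genes), and by 2 with a negative value, Eif3k and Eif1 (3.77%, against 3.77%). The values were 0.51 ± 0.205 for Eif3a, 0.43 ± 0.198 for Eif3c, 0.50 ± 0.230 for Eif2s3x, −0.79 ± 0.320 for Eif3k and −0.91 ± 0.370 for Eif1, all at an adjusted p of 0.648 in edgeR. The 5 genes of eIF2 and related tRNA carriers all had a value above 0, from 0.022 to 0.50. With both libraries of high mitochondrial share left out, the values were 0.42 for Eif3a, 0.30 for Eif3c, 0.37 for Eif2s3x, −0.53 for Eif3k and −0.48 for Eif1. The subunits of eIF3 thus did not share a sign: Eif3a and Eif3c were on the positive side and Eif3k on the negative side, with 6 of the 14 above 0.

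Averaged over both treatments, the genotype effect had a median of 0.010 with 31 of 53 genes above 0, beside −0.001 over all genes, of which 49.7% were above 0. At an unadjusted p under 0.05 were Eif3j2, at −0.73 ± 0.276, and Eif3f, at −0.20 ± 0.092 (3.77%, against 1.81% of all genes), and no gene was higher (against 0.833%). Eif5a2, the second eIF5A gene, followed at 0.28 ± 0.146 and Eif2b1 at 0.11 ± 0.080. Averaged over both genotypes, the metformin effect was above 0 for 16 of the 53 genes (30.2%, against 47.7% of all genes), with a median of −0.052 beside −0.007. The size of this median rested on single libraries. It was −0.014 with 23 genes above 0 without WT VEH 1. It was −0.026 without WT MET 1, −0.034 without RH VEH 2 and −0.081 without WT VEH 3. In the libraries of round 2 it was −0.004, with 23 genes above 0. Eif4a2 was the only gene at an unadjusted p under 0.05, at 0.25 ± 0.114 (1.89%, against 0.966% of all genes with a higher value and 0.66% with a lower one). It was followed by Eif4ebp2 at −0.13 ± 0.078, Eif3j1 at −0.15 ± 0.094 and Eif2ak1 at −0.14 ± 0.094.

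The libraries of round 2 had lower levels of the initiation factor genes than those of round 1. With the group held constant, 47 of the 53 genes were lower in round 2, with a median log2 difference of −0.21, beside 0.007 over all genes, of which 51.1% were higher. The adjusted p was under 0.05 for none of the 53 genes and for 0.0467% of all genes (0.0333% lower and 0.0133% higher), and it was smallest for Eif4ebp2 (−0.44 ± 0.083, adjusted p = 0.0764 in edgeR) and Eif2b1 (−0.42 ± 0.085, adjusted p = 0.0911). As the median deviation of the 53 genes from their own means, the 6 libraries of round 1 stood at 0.017 to 0.237 and the 6 of round 2 at −0.204 to −0.007, while the same median over all genes stayed between −0.009 and 0.021. No library of round 2 reached the lowest of round 1. Marker levels also differed along this line, and their part in the shift was not tested: the 3 stromal and endothelial markers, led by Col1a1, summed to 15.6 to 136 CPM in round 1, to 37.4 and 30.6 CPM in WT MET 2 and RH VEH 2, and to 261 to 462 CPM in the other 4 libraries of round 2. Both rounds held libraries of every group, but unequally. WT VEH 1 and 2 and RH MET 1 and 2 but only WT MET 1 and RH VEH 1 were of round 1. The round is a term in every fold change above, but this term does not separate WT MET 2 and RH VEH 2 from the rest of round 2.

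**Figure D4:**
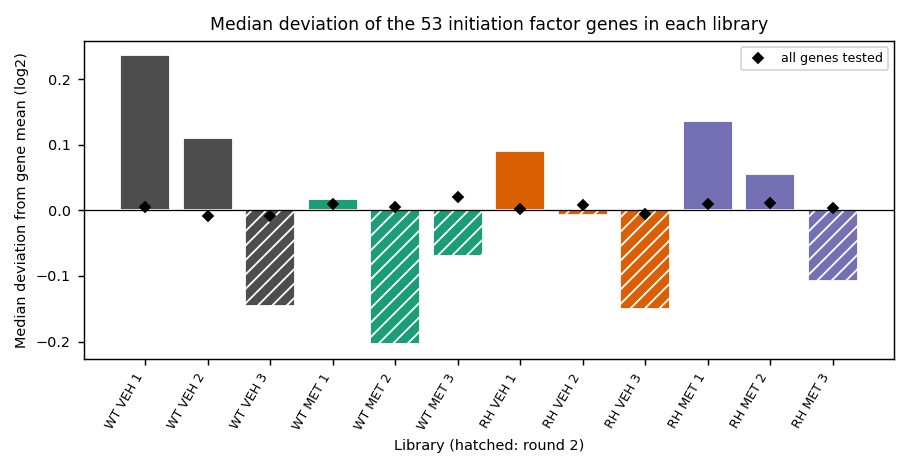
Median deviation (log2) of the 53 genes from their own means over the 12 libraries, as a bar per library coloured by group and hatched for round 2, with a diamond for the same median over all genes tested. The bars are above 0 in the 6 libraries of round 1 (0.017 to 0.237) and below 0 in the 6 of round 2 (−0.204 to −0.007).

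WT MET 2 and RH VEH 2 stood apart from the rest of round 2, in opposite directions for the family's median and together for single genes. WT MET 2 had the lowest median deviation of the 53 genes, −0.204, and RH VEH 2 the highest of its round, −0.007. The remaining 4 round 2 libraries lay between them, at −0.151 to −0.070. Eif5b, the GTPase of subunit joining, was at 347 CPM in WT MET 2 and 309 CPM in RH VEH 2, against 124 to 219 CPM in the other 10 libraries, a difference of 1.23 log2 units from the rest of round 2. For RH VEH against WT VEH, Eif5b had a log2 fold change of 0.44 ± 0.416, and of 0.19 ± 0.148 without both. For WT MET against WT VEH the value was 0.31 ± 0.425, and −0.24 ± 0.15 without both, and for RH MET against WT MET it was −0.25 ± 0.423, and 0.30 ± 0.15 without both, so the sign of these last 2 values turned. The exons of Eif5b overlap those of Rev1 on the other strand. Eif1 (0.86), Eif2b4 (0.84), Eif6 (0.65), which encodes a factor that keeps free large subunits apart from small ones, and Eif3k (0.61) were higher by the same measure.

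Outside the range of the other 10 libraries on the high side in both were Eif5b and Eif2ak3 (3.77% of the 53, against 13.1% of all genes). On the low side were 8 genes, Eif2b2, Eif2s3x, Eif2s1, Eif3c, Eif3e, Eif3a, Eif3h and Eif3l (15.1%, against 12.2%), with differences of −0.42 to −0.18.

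**Figure D5:**
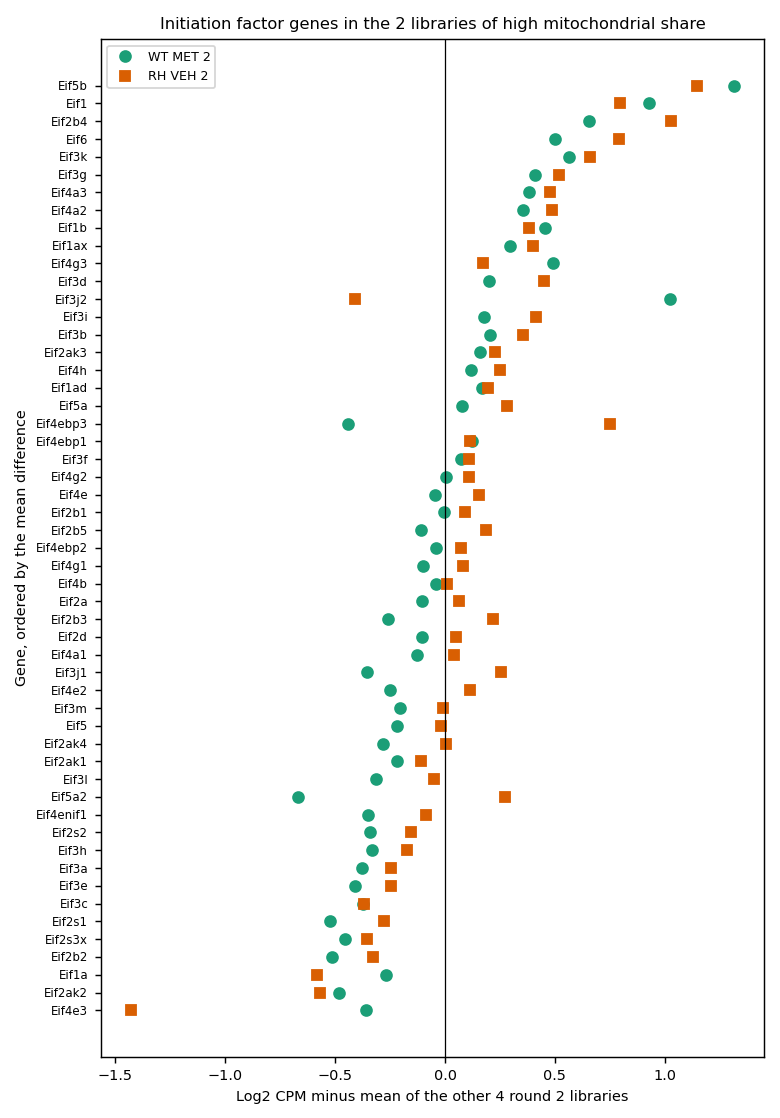
Log2 CPM of each of the 53 genes in WT MET 2 (circles) and RH VEH 2 (squares) minus its mean in the other 4 round 2 libraries, ordered by the mean difference. Eif5b stands furthest to the right at a mean of 1.23, while Eif2s3x, Eif2s1, Eif3c and Eif3a are to the left of 0 in both.

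Genes that regulate the initiation factors were read from 4 further lists, and none of their genes passed the test in any comparison. Of 15 genes of mTORC1 and the eIF4E kinases, 3 were above 0 and 12 below for RH VEH against WT VEH, and 5 above and 10 below for WT MET against WT VEH. In both comparisons of RH MET, 11 were above 0 and 4 below. These comparisons share libraries with one another, so their counts are not independent. Over all genes tested, 48% to 51.9% were above 0 in them. Mtor, which encodes the mTORC1 kinase, stood at 51.1, 65 and 63.3 CPM in WT VEH, at 43.6, 38.3 and 47.1 CPM in WT MET, at 44, 41.6 and 61.5 CPM in RH VEH and at 65, 64 and 55.1 CPM in RH MET. All WT MET libraries lay below all WT VEH and all RH MET libraries, and the log2 fold changes were −0.48 ± 0.177 for WT MET against WT VEH and 0.52 ± 0.179 for RH MET against WT MET (adjusted p = 0.876 and 0.738 in edgeR). With those 2 of high mitochondrial share left out they were −0.43 and 0.46. Larp1, which encodes a repressor of terminal oligopyrimidine mRNAs, had −0.35 ± 0.15 for WT MET against WT VEH, and −0.45 without those 2 libraries.

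Of 9 tested genes that act on or after eIF2 phosphorylation, 8 were above 0 for WT MET against WT VEH and 6 below 0 for RH MET against WT MET. Ppp1r15a, which encodes GADD34, the stress-induced subunit of the eIF2 phosphatase, stood at 587, 489 and 339 CPM in WT VEH, at 459, 489 and 312 CPM in WT MET, at 496, 425 and 282 CPM in RH VEH and at 318, 264 and 205 CPM in RH MET. RH MET was the lowest group by its mean, at 262 CPM ± 56.3 (SD, n = 3), and RH MET 1 overlapped WT MET 3 and RH VEH 3. Its log2 fold change was −0.85 ± 0.204 for RH MET against WT MET (unadjusted p = 0.00115, adjusted p = 0.738 in edgeR) and −0.77 ± 0.202 for RH MET against RH VEH (adjusted p = 0.932 in edgeR). Without WT MET 2 and RH VEH 2 these values were −0.65 and −0.64. Atf4, whose translation increases when eIF2 is phosphorylated, stood at 493, 406 and 356 CPM in WT VEH, at 575, 690.4 and 362 CPM in WT MET, at 579, 548 and 338 CPM in RH VEH and at 443, 409 and 329.5 CPM in RH MET. Within each group the round 2 library of ordinary mitochondrial share was the lowest for Atf4, as for Eif1, and the log2 fold change for RH MET against WT MET was −0.57 ± 0.233, and −0.30 without those 2 libraries.

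The other lists gave mixed signs. Of 12 initiation factors with other names, 6 were above 0 for RH MET against WT MET, and Mcts1, a partner of Denr in reinitiation, had an interaction of −0.81 ± 0.294, and −0.59 without WT MET 2 and RH VEH 2. Of 12 elongation and termination genes, 8 were below 0 for RH MET against WT MET. Eef1b2, an exchange factor subunit for eEF1A, stood at 1163, 1588 and 1036 CPM in WT MET and at 783, 816 and 839 CPM in RH MET, which did not overlap, with a log2 fold change of −0.67 ± 0.275 (adjusted p = 0.738 in edgeR), and −0.47 without those 2 libraries.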

How the data were processed

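The authors deposited unnormalised read counts, in whole numbers, for 12 libraries and, separately, in a smaller table. The tools STAR 2.5 and HTSeq 0.6.1 and the build mm10 appear without settings, per the submitters' processing notes. The sources used here do not give the handling of strand or of reads mapping to several places. Of the smaller table, 2 columns could be matched to no sample and were left out. Library numbers are those of the table's columns, and for several columns the labels fix the group but not the sample.

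Counts were tested with edgeR 4.0.16 in R 4.3.3 (robust quasi-likelihood, TMM, filterByExpr, group means and a term for round, 12 libraries) and adjusted by Benjamini-Hochberg over 15003 genes. The biological coefficient of variation was 0.256. The standard error is the log2 fold change over the root of F. Scripts were tested on simulated data. Library pairs differed by more than sampling noise.

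Replicate numbers were checked for pairing: deviations of same-numbered libraries correlated at −0.003 to 0.424 (median 0.120, 18 pairs), and others at −0.381 to 0.126 (median −0.129, 36 pairs). The 6 pairs numbered 3 stood at 0.203 to 0.424. Not all same-numbered pairs passed 0.1, so the numbers were not taken to pair libraries. These are column numbers, which need not be the replicate numbers of the labels, as for RH VEH 1. Number 2 also mixes rounds 1 and 2, and within it WT MET 2 and RH VEH 2, both of round 2, correlated at 0.339. The check therefore cannot decide whether libraries were paired. Alternatives were DESeq2 1.42.0, other scaling and filters, no round term, a replicate block, left-out libraries and single rounds. Named with a test are the 4 genes of smallest p per comparison and those past the threshold, and for levels a fixed set by role. Genes were also named where groups did not overlap, where 2 libraries stood apart or where an unadjusted p was under 0.05, chosen after their values were seen. The round difference, ratios and length relation were added after seeing the data. The genes, lists and tests were chosen with earlier results of these data known. Sequences come from RefSeq tables of GRCm38.p6. Gene coordinates are those of the deposited table.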

Additional observations from a re-analysis of the deposited data

How the results depend on the processing

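Each comparison was recomputed under 21 alternative settings. The number of initiation factor genes called was 0 in all 147 of these counts, including the 12 fits that left out a library (0 to 0 in each comparison), DESeq2 and the fits on 27530 genes without a filter on low counts. The smallest adjusted p of any of the 53 genes under any setting was 0.0769, for Eif1 in RH MET against WT MET without the filter. With the replicate block, by column number, 0 initiation factor genes were called. Of all genes tested, this fit called 2 for RH VEH against WT VEH, 1 for RH MET against WT MET and 1 for the mean genotype effect. In that fit the median of the 53 genes was −0.060 for RH VEH against WT VEH and 0.071 for RH MET against WT MET. The SD of 0.142 between libraries of a group, where rounds are mixed, is a wide bound beside the medians of −0.052 to 0.032. It allows a change of sign: the median for RH VEH against WT VEH ran from −0.067 to 0.048. Of the 147 medians, 146 moved by less than this bound. The exception was WT MET against WT VEH in the libraries of round 1, at −0.159 in place of −0.010, where each group has 1 or 2 libraries and the spread is pooled. The cause was not tested. For the 4 genes of smallest p in each comparison, 28 values, 587 of 588 recomputed values kept their direction and all missed the threshold. These genes were picked by p in the same data, and most settings reuse all or nearly all of the libraries. The kept direction is therefore no independent check. Eif5b, outside this set, turned sign as the report gives. Eif2ak1 changed sign for the mean metformin effect in the libraries of round 2, at 0.054. Over all genes tested, DESeq2 called 22 for RH MET against WT MET and 20 for the mean genotype effect, against 1 each in edgeR. Without the filter edgeR called 63 to 431 of 27530 genes in the 7 comparisons, 362 of them for RH MET against WT MET. For genes of few reads, such as Eif4ebp3 and Eif3j2, depth limits the precision.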

Other observations

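The ratio of Eif4e, the cap-binding protein gene, to Eif4ebp2, the gene of its repressor, both per kb, was 0.511, 0.568 and 0.531 for WT VEH 1 to 3, 0.709, 0.698 and 0.777 for WT MET, 0.567, 0.742 and 0.716 for RH VEH and 0.574, 0.514 and 0.820 for RH MET. The ratio tests below have no term for round, and its part in them was not tested. WT VEH 1 and 2 but only WT MET 1 were of round 1. The round 2 difference was −0.44 log2 units for Eif4ebp2 and −0.19 for Eif4e. In RH VEH and RH MET, but not in the WT groups, every round 2 ratio stood above every round 1 ratio. The WT MET and WT VEH libraries did not overlap (exact permutation p = 0.1, two-sided, the smallest possible with 3 against 3, adjusted p = 0.64 over 32 tests of 8 ratios). In all, 5 of the 32 reached this p, the others being Eif5a to Eif5a2 and Eif1 to Eif5 for RH MET against WT MET, and Eif4g1 to Eif4g2 for RH MET against WT MET and for WT MET against WT VEH. With no difference, a share of 0.1 of such tests would reach it, and the ratios share genes and libraries. Of all single genes, 7.97% did not overlap with RH MET higher than WT MET and 8.94% with RH MET lower. For WT MET against WT VEH these shares were 4.98% and 4.40%. The ratio of Eif4a1 to Eif4a2 per kb was 3.39 ± 0.616 (SD, n = 3) for WT VEH, 2.36 ± 0.608 for WT MET, 2.59 ± 0.458 for RH VEH and 2.68 ± 0.0364 for RH MET, and the WT VEH libraries overlapped those of WT MET and RH VEH. Eif4a1 reads may be shared with its pseudogene.

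Fold changes were also set against the deposited gene length, as a description across genes, which are not independent replicates and share the same libraries. Spearman's rho was 0.309 over the 53 genes and 0.246 over all 15003 genes for RH MET against WT MET, 0.255 and 0.265 for the interaction, and 0.435 and 0.090 for the mean genotype effect. For RH MET against WT MET, 11 of the 27 genes of length up to the median of 4468 bases were above 0, and 19 of the 26 longer genes.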
